A study of Rattus norvegicus with 12 samples.

Results

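The antioxidant enzymes of the NRF2 pathway were followed in the lungs of rats exposed to cigarette smoke (CS) and lipopolysaccharide (LPS). They are 10 genes chosen by name for their role, out of 14737 genes that the array's probes could be matched to by symbol. In order of role they are Hmox1, Gclc, Gclm, Txnrd1, Srxn1, Gpx2, Cat, Sod1, Sod2 and Sod3. A total of 12 probes matched them, through the RefSeq accession of each probe, and 11 of these probes in 9 of the genes were detected, meaning that in at least 1 group the scanner software set the probe well above background on each of the 3 arrays. Gclm had 1 probe, which was well above background on 0 of 12 arrays, so no level or change of Gclm was measured here.

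NRF2, encoded by Nfe2l2, is a transcription factor that KEAP1 marks for breakdown in resting cells. Oxidants and electrophiles, of which cigarette smoke carries many, modify KEAP1, and NRF2 then accumulates, pairs with a small MAF protein and binds antioxidant response elements in front of its target genes. In the lung, these targets supply glutathione, reduced thioredoxin and haem breakdown to epithelium and macrophages, and they act beside catalase and the superoxide dismutases, whose genes are also controlled in other ways.

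Lung RNA of 12 male Sprague-Dawley rats aged 8 to 12 weeks was hybridized to single-colour Agilent arrays, 1 rat per array and 3 rats in each of 4 groups. The CS + LPS group breathed cigarette smoke until day 30 and had LPS, a bacterial cell wall component that provokes inflammation, instilled into the trachea on days 5 and 19. The CS + LPS + NaHS group had the same exposures and received NaHS, a salt that releases hydrogen sulfide, and the CS + LPS + PPG group received propargylglycine (PPG), which blocks the hydrogen sulfide-forming enzyme CTH. Both compounds were injected into the peritoneum before each exposure. The control group followed the same schedule with air or saline. The left upper lobe was used in every group, 24 h after the last smoke exposure, so the values describe the lung a day after the last smoke and not the hours of exposure itself. No group received NaHS or PPG without smoke and LPS.

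All 6 markers of lung tissue (Sftpc, Sftpb, Sftpa1, Scgb1a1, Ager, Aqp5) were detected. The arrays lay on 2 slides. Slide 2 held control replicate 3 and the CS + LPS arrays, and slide 1 held all others, so the CS + LPS group was compared with NaHS or PPG only across slides. Control replicate 3, the only array that links the slides, had the lowest 75th percentile of signal, 1229 against 2110 to 3261 on the other arrays, and between 66.0% and 75.5% of the probes of an array were well above background. Its summed marker signals also stood apart from those of control replicates 1 and 2. They were 92140 against 7172 and 6411 for heart muscle, 11330 against 3296 and 3430 for fat, 405800 against 182900 and 188000 for airway epithelium, and 224700 against 338300 and 343000 for alveolar type 1 cells. The part of these tissues in results that rest on this array was not tested.

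In the rat genome (GRCr8), the letters TGACNNNGC, a short form of the antioxidant response element, were searched in the 250 bases before the gene starts listed by RefSeq. A promoter was listed for 8 of the 10 members, 9 promoters in all because Txnrd1 had another start, whose window held no match. Of the 8 members, 4 held the letters. Counted by promoter, 10.1% of all 33469 held them on the same search of both strands. The 4 matches are shown because they show which members carry these letters close to their start. Each is a stretch of 30 bases, printed 5′ to 3′ on the strand opposite to the gene, with the matched letters in capitals. The Gpx2 match lay 5 to 13 bases before the start (chr6:101230034-101230063, plus strand), the Sod2 match 27 to 35 bases before it (chr1:50050184-50050213, plus strand), the Txnrd1 match 70 to 78 bases before a start that lies inside the annotated gene (chr7:22755963-22755992, plus strand), and the Gclm match 164 to 172 bases before the start (chr2:213031953-213031982, minus strand).
Gpx2: agaaTGACTTAGCgaaaccaggtacccacc
Gclm: ctggaagacaaTGACTAAGCagaaaccgca
Txnrd1: ccgtgtcagaaTGACAAAGCaaaaatccag
Sod2: cagctaggcgcTGACCCTGCcggcagcgcc
The windows of Gclc, Srxn1, Cat and Sod1 held no match, which says only that these letters were not in these windows. Those of Gclc and Sod1 lay partly inside the annotated gene.

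Groups were compared with limma, which was fitted to all 12 arrays over the 21239 detected probes, and p-values were adjusted by Benjamini-Hochberg over all of these probes. A probe is called here when its adjusted p is under 0.05. The rule in the study's methods, a fold change of at least 2 with an unadjusted p under 0.05, is given apart. Values are normalized processed signals on the log2 scale, where a difference of 1 is a fold change of 2, and differences are given with the 95% confidence interval (CI). They can be compared between groups for a probe, but not between probes. In RNA of whole lung, fewer cells of a type and less RNA per cell cannot be told apart. The most intense detected probe stands for a gene. Where the arrays of a group are said to lie apart from those of another, the share of all probes that do so is not given.

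None of the 9 detected members was called in any of the 6 comparisons. Between the CS + LPS group and control, limma called 0 members against 2.02% of all probes, and 1 member, Hmox1, had an unadjusted p under 0.05, as did 25.2% of all probes. The methods' t-test gave 0 members at an unadjusted p under 0.05 and 0 after adjustment. By the study's rule 0 members passed, against 4.56% of all probes. The median log2 difference of the 9 members was 0.03, with 6 higher and 3 lower, and the median of all probes was -0.04.

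**Figure D1:**
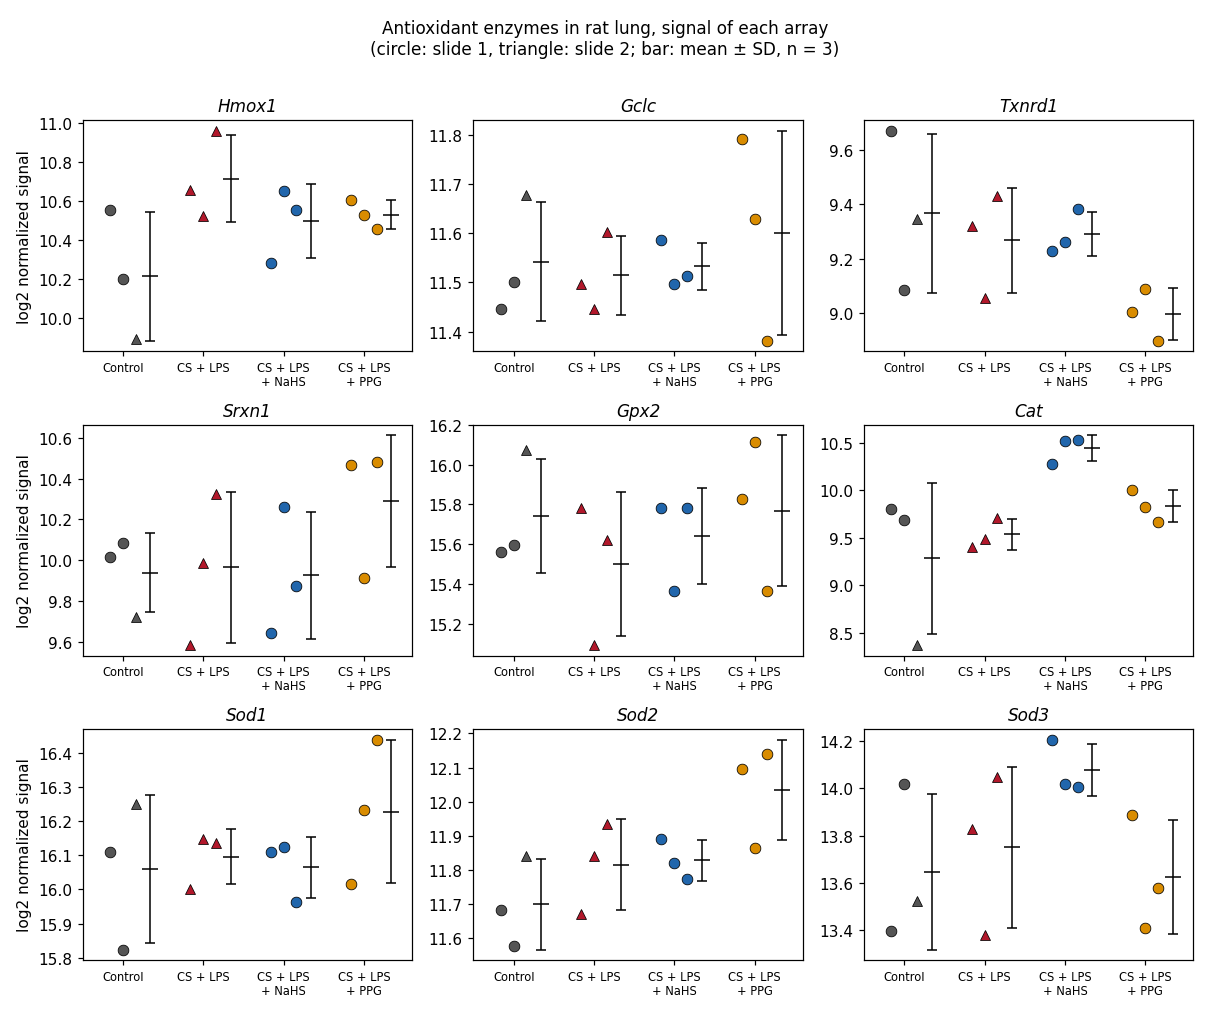
Normalized log2 signal (vertical axis, a scale of its own in each panel) of the 9 detected antioxidant enzymes on each of the 12 arrays, by group. Circles are arrays of slide 1, triangles arrays of slide 2, and the bar is the mean ± SD of 3 rats. The Cat signal of control replicate 3 (8.37) lies far below the other controls, and the 3 NaHS arrays lie above all other arrays. The share of all probes that separate so is not given.

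Hmox1 encodes haem oxygenase 1, which opens the haem ring and is among the most inducible NRF2 targets. Its log2 signal was 10.55, 10.20 and 9.89 in the 3 controls, 10.66, 10.52 and 10.96 in the CS + LPS group, 10.28, 10.65 and 10.55 with NaHS, and 10.61, 10.53 and 10.46 with PPG. The CS + LPS arrays reached the highest values, but the lowest of them lay just under the highest control, so the groups overlapped. The difference between the CS + LPS group and control was 0.50 (CI 0.09 to 0.91, 1.41-fold, adjusted p = 0.139). With slide as a block, a fit that called 41.6% of all probes, it was 0.82 with an adjusted p of 0.0134, a value that rests on control replicate 3 as the only control on that slide, and the other alternatives gave adjusted p-values of 0.0809 to 0.465. Compared with the CS + LPS group, Hmox1 differed by -0.22 (CI -0.63 to 0.19) with NaHS and by -0.18 (CI -0.59 to 0.22) with PPG.

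Gclc encodes the catalytic subunit of glutamate-cysteine ligase, which carries out the rate-limiting step of glutathione synthesis, and Gclm encodes its modifier subunit. Of the 9 detected members, Gclc had the smallest differences over the 6 comparisons. Its log2 signal was 11.45, 11.50 and 11.68 in control, 11.50, 11.45 and 11.60 in the CS + LPS group, 11.59, 11.50 and 11.51 with NaHS, and 11.79, 11.63 and 11.38 with PPG. All 4 groups overlapped. The difference between the CS + LPS group and control was -0.03 (CI -0.32 to 0.26, adjusted p = 0.905), and over the 6 comparisons its difference ran from -0.07 to 0.09, each with a CI that reached less than 0.38 from 0.

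Txnrd1 encodes the cytosolic thioredoxin reductase, which keeps thioredoxin reduced at the expense of NADPH, and Srxn1 encodes sulfiredoxin, which restores peroxiredoxins that peroxide has inactivated. The log2 signal of Txnrd1 was 9.67, 9.08 and 9.34 in control, 9.32, 9.05 and 9.43 in the CS + LPS group, 9.23, 9.26 and 9.38 with NaHS, and 9.004, 9.09 and 8.90 with PPG. The PPG arrays lay below all NaHS arrays and at the low end of control. The difference between the PPG group and control was -0.37 (CI -0.73 to -0.01, adjusted p = 0.161). A second, dimmer Txnrd1 probe gave -0.13 (CI -0.74 to 0.48) for the same comparison. Between NaHS and PPG the brighter probe gave 0.29 and the dimmer one -0.23, so that the probes differed in sign.

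For Srxn1 the log2 signal was 10.02, 10.08 and 9.72 in control, 9.59, 9.99 and 10.32 in the CS + LPS group, 9.65, 10.26 and 9.88 with NaHS, and 10.47, 9.92 and 10.48 with PPG. Within each exposed group, the rats spread by more than 0.5, which is wider than the difference between any 2 group means. The CS + LPS group differed from control by 0.03 (CI -0.49 to 0.54, adjusted p = 0.952), and the PPG group by 0.35 (CI -0.17 to 0.87, adjusted p = 0.340).

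Gpx2, whose promoter held the match nearest to its start, encodes a glutathione peroxidase of epithelial cells and is a known NRF2 target. Its brighter probe read 15.56, 15.59 and 16.07 in control, 15.78, 15.09 and 15.62 in the CS + LPS group, 15.78, 15.36 and 15.78 with NaHS, and 15.83, 16.11 and 15.36 with PPG. The groups overlapped in all comparisons. The CS + LPS group differed from control by -0.24 (CI -0.79 to 0.30, adjusted p = 0.534) on this probe and by 0.19 (CI -0.39 to 0.78, adjusted p = 0.652) on the dimmer one. The NaHS group differed from control by -0.10 and 0.36 on the same probes, so no direction can be given for Gpx2 in either comparison.

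Cat encodes catalase, the peroxisomal enzyme that splits hydrogen peroxide into water and oxygen, and it was the member with the widest differences between groups. Its log2 signal was 9.80, 9.68 and 8.37 in control, 9.40, 9.49 and 9.71 in the CS + LPS group, 10.28, 10.51 and 10.52 with NaHS, and 10.004, 9.82 and 9.66 with PPG. Every NaHS array lay above every array of the other groups, and the share of all probes that separate so is not given. Between NaHS and PPG, which lay on the same slide, the limma difference was 0.61 (CI -0.08 to 1.29, adjusted p = 0.595). The gap from control replicate 3 to the next lowest control was wider than the spread of any of the exposed groups.

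Between the NaHS group and control, Cat differed by 1.16 (CI 0.47 to 1.84, 2.23-fold, adjusted p = 0.146). This made it the 1 member of 9 that passed the study's rule in that comparison, against 2.67% of all probes. limma called 0 members there, against 0.0989% of all probes, and Cat was also the 1 member with an unadjusted p under 0.05, against 17.1% of all probes, whereas the methods' t-test gave 0 members before and after adjustment. Without control replicate 3 the difference fell to 0.70 (adjusted p = 0.126), below a fold change of 2. The fit within slide 1 compares the same control and NaHS arrays, so its difference is the same 0.70 (adjusted p = 0.105) and is no separate check. Over all alternatives, the adjusted p of this difference ran from 0.0783 to 0.481.

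Compared with the CS + LPS group, Cat differed by 0.91 with NaHS (CI 0.22 to 1.59, 1.87-fold, adjusted p = 0.306). Again limma called 0 members, against 0.593% of all probes, and 1 member (Cat) had an unadjusted p under 0.05 by limma and 1 by the methods' t-test, against 9.67% of all probes by limma. None passed the study's rule, against 1.70% of all probes. The difference had an adjusted p of 0.0420 when only these groups were fitted, a fit that called 0.989% of all probes. Without control replicate 3 the adjusted p was 0.0122, where 1.85% of all probes were called. In all other settings the adjusted p was between 0.150 and 0.692. All arrays of one group lay on slide 2 and those of the other on slide 1, and with slide as a block the difference was -0.47 (adjusted p = 0.173). Slide and group cannot be told apart here except through control replicate 3.

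The CS + LPS group differed from control in Cat by 0.25 (CI -0.44 to 0.94, adjusted p = 0.613). Within slide 2, where the only control is replicate 3, it was 1.17 (adjusted p = 0.0340), and without that control it was -0.21 (adjusted p = 0.456), with adjusted p-values of 0.00138 (slide as a block) to 0.811 over all alternatives. The direction of Cat in this comparison therefore turned on that array. Liver is rich in catalase, and of its 3 markers Alb and Apoa1 were not detected. The third, Ttr, was detected and differed with NaHS by 0.89 from the CS + LPS group (adjusted p = 0.779), by 0.90 from the PPG group (adjusted p = 0.689) and by 0.35 from control (adjusted p = 0.790). The summed liver signal, which is that of Ttr alone, was 18.9, 105.1 and 130.9 on NaHS replicates 1, 2 and 3. On the arrays of the other groups it was at most 75.4. The part of liver transcripts in the Cat values was not tested. The macrophage marker list, which holds 5 detected genes, had a summed signal of 7732 to 9441 in control, 15410 to 22200 in the CS + LPS group, 15350 to 19130 with NaHS and 14870 to 19430 with PPG. The 3 exposed groups overlapped in that sum, and the part of macrophages in the Cat values was not tested.

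**Figure D2:**
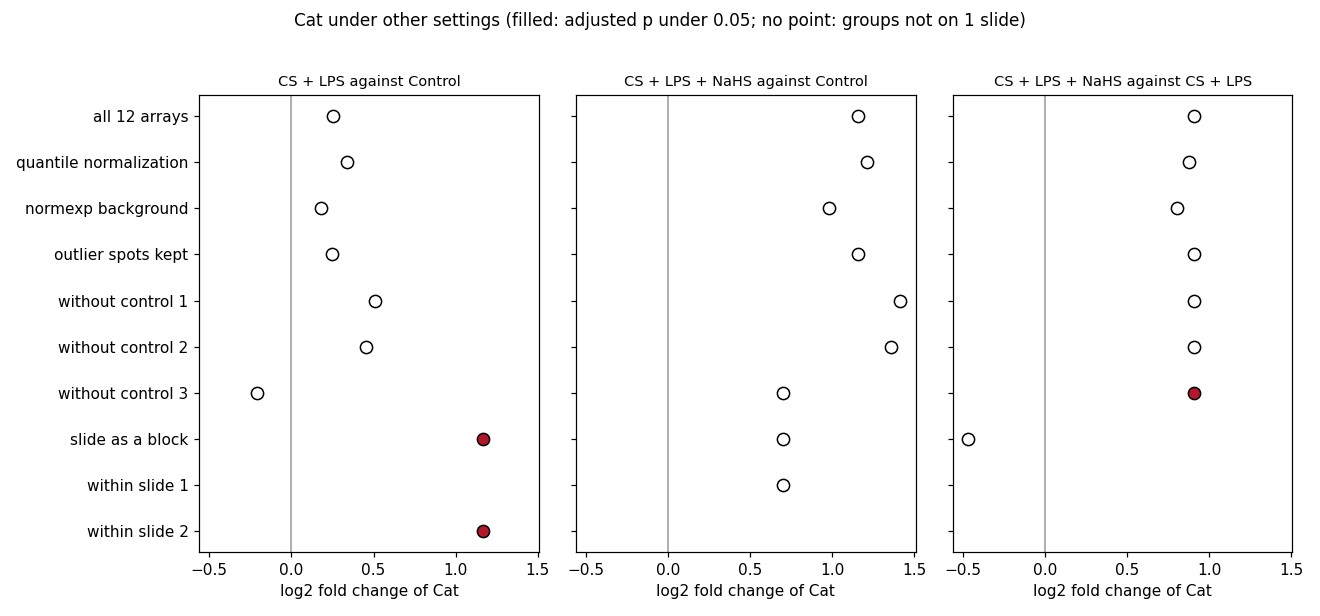
Log2 fold change of Cat (horizontal axis) in 3 comparisons under 10 settings (vertical axis), where a filled point has an adjusted p under 0.05. For CS + LPS against control the value moves from -0.21 without control replicate 3 to 1.17 with slide as a block or within slide 2.

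The superoxide dismutases turn superoxide into hydrogen peroxide, Sod1 in the cytosol, Sod2 in mitochondria and Sod3 outside the cell. For Sod1 the log2 signal was 16.11, 15.82 and 16.25 in control, 16.003, 16.15 and 16.14 in the CS + LPS group, 16.11, 16.12 and 15.96 with NaHS, and 16.02, 16.23 and 16.44 with PPG. The groups overlapped throughout. The CS + LPS group differed from control by 0.03 (CI -0.30 to 0.36, adjusted p = 0.896) and the NaHS group by 0.00 (CI -0.33 to 0.33).

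The mitochondrial enzyme Sod2 had log2 signals of 11.68, 11.57 and 11.84 in control, 11.67, 11.84 and 11.93 in the CS + LPS group, 11.89, 11.82 and 11.77 with NaHS, and 12.10, 11.86 and 12.14 with PPG. All PPG arrays lay above all controls. The difference was 0.34 (CI 0.05 to 0.62, 1.26-fold, adjusted p = 0.123). In this comparison limma called 0 members, against 4.64% of all probes, and 2 members (Txnrd1 and Sod2) had an unadjusted p under 0.05, against 29.3% of all probes. The methods' t-test gave 1 member before adjustment, for which no share of all probes is given, and 0 after it. None passed the study's rule, against 4.38% of all probes. The CS + LPS group differed from control by 0.12 (CI -0.17 to 0.40) in Sod2.

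Sod3, the extracellular enzyme held in the matrix of lung and vessel walls, read 13.40, 14.02 and 13.52 in control, 13.83, 13.38 and 14.05 in the CS + LPS group, 14.21, 14.02 and 14.01 with NaHS, and 13.89, 13.41 and 13.58 with PPG. The NaHS arrays were close together and lay above all PPG arrays. Between these groups the difference was 0.45 (CI -0.02 to 0.93, 1.37-fold, adjusted p = 0.582). Between NaHS and PPG, limma called 0 members and 0% of all probes, and 0 members had an unadjusted p under 0.05, against 8.74% of all probes. The methods' t-test gave 3 members at an unadjusted p under 0.05 and 0 after adjustment. No share of all probes is given for that t-test before adjustment, so the 3 cannot be read as an excess. The study's rule was passed by 0 members and 0.523% of all probes. The NaHS group differed from control in Sod3 by 0.43 (CI -0.04 to 0.90, adjusted p = 0.322).

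Between the PPG and CS + LPS groups no member stood out. limma called 0 members, against 0.523% of all probes, and 0 members had an unadjusted p under 0.05 by limma or by the methods' t-test, against 10.5% of all probes by limma. The study's rule was passed by 0 members and 2.05% of all probes. The differences of the 9 members ran from -0.27 (Txnrd1, CI -0.63 to 0.09) to 0.32 (Srxn1, CI -0.20 to 0.84), with a median of 0.13 against 0.02 for all probes. With slide as a block Cat was -1.08 (adjusted p = 0.0132) in place of 0.30, again through control replicate 3, and the adjusted p was 0.293 to 0.948 in the other alternatives.

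**Figure D3:**
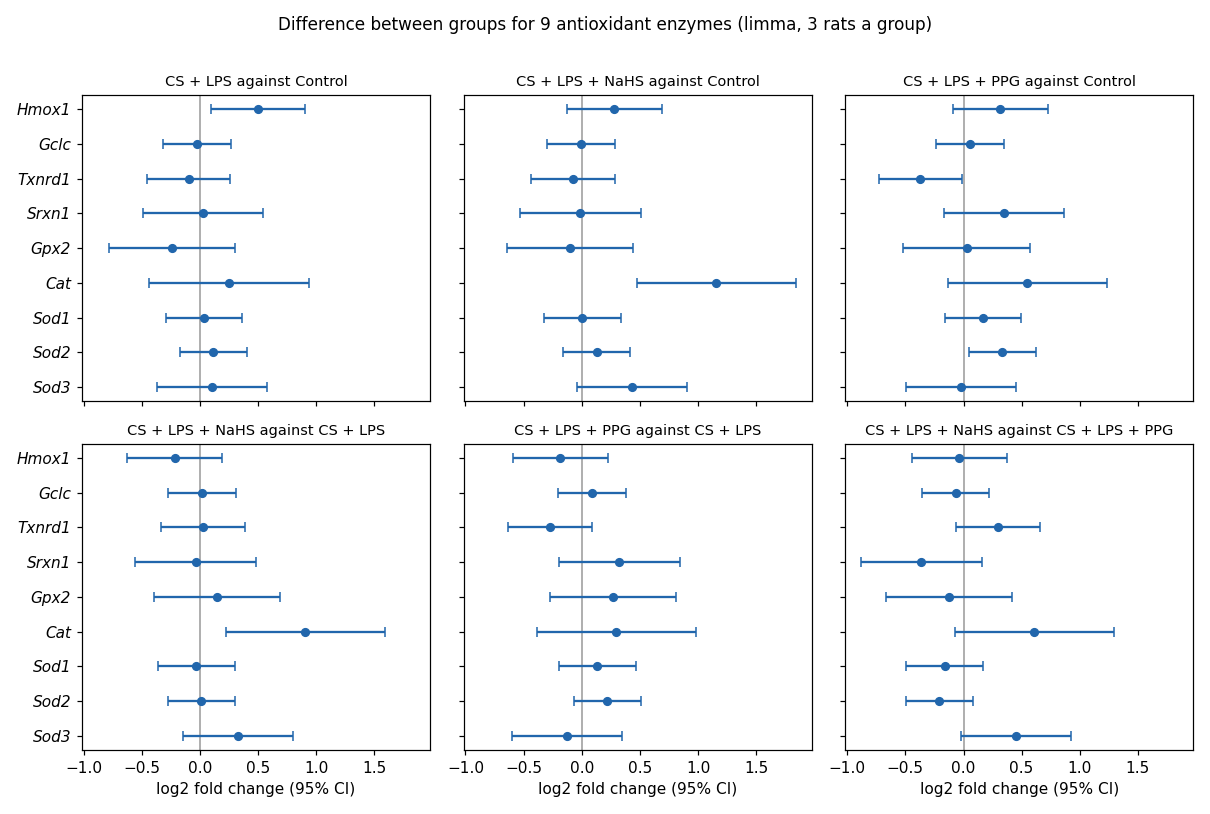
Log2 fold change (horizontal axis) of the 9 detected antioxidant enzymes in the 6 comparisons, with points for the limma estimate and bars for its 95% CI. Most bars cross 0, and the Cat estimates with NaHS (1.16 against control, 0.91 against CS + LPS) lie farthest from it.

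The members did not move as a block from rat to rat. Over the 12 arrays, Pearson's r between 2 members ran from -0.52 to 0.70 in 36 pairs, with the highest value for Gclc and Gpx2. These are descriptions over arrays that share 4 groups and 2 slides. Among 13142 detected probes with a symbol, the one most like the member was Kcnh4 for Hmox1 (r = 0.94), Wdr46 for Gclc (0.87), Nhsl3 for Txnrd1 (0.93), Anp32b for Srxn1 (0.86), Zfp384 for Gpx2 (0.92), Yy1 for Cat (0.96), Ppp1r35 for Sod1 (0.90) and Rps28 for Sod2 (0.91), each as Pearson's r over 12 arrays. No other NRF2 pathway gene was the closest to any of these members.

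Of 61 other genes of the pathway, 57 had a detected probe, and here calls were made in both directions. Between the CS + LPS group and control 5 of 57 were called, 4 higher and 1 lower (2.02% of all probes were called), and 27 had an unadjusted p under 0.05 (25.2% of all probes). Their median log2 difference was 0.08. Between the PPG group and control 7 were called, 6 higher and 1 lower (4.64% of all probes), with 27 at an unadjusted p under 0.05 (29.3% of all probes) and a median of 0.18. In the other 4 comparisons limma called 0 of 57. At an unadjusted p under 0.05, limma gave 19 for NaHS against control, 7 for NaHS and 3 for PPG against the CS + LPS group, and 5 for NaHS against PPG, where the shares of all probes were 17.1%, 9.67%, 10.5% and 8.74%. The methods' t-test gave 16, 11, 20, 7, 5 and 6 of 57 before adjustment and 0 after adjustment in all 6. The order is CS + LPS, NaHS and PPG against control, NaHS and PPG against CS + LPS, and NaHS against PPG. The shares of all probes given here are by limma, so they are no base for the t-test counts.

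Of the 7 different genes called higher, 5 (Gpx1, Glrx, Prdx1, Prdx5 and Txn1) act on peroxide or thiols. They come from the glutathione and thioredoxin lists, which hold 10 and 13 of the 57 detected genes, so many genes of this kind were tested. Against control, 4 of the 10 and 3 of the 13 had lower values in the CS + LPS group, and 2 and 3 with PPG, none of them called. Gpx1, the glutathione peroxidase of most cells, read 15.74, 15.76 and 15.21 in control, 16.22, 16.40 and 16.32 in the CS + LPS group, 16.17, 16.10 and 16.02 with NaHS, and 16.18, 16.36 and 16.32 with PPG. All exposed arrays lay above all controls. Gpx1 was higher than control by 0.74 in the CS + LPS group (CI 0.40 to 1.09, 1.68-fold, adjusted p = 0.0427) and by 0.72 with PPG (CI 0.38 to 1.06, adjusted p = 0.0371), and the difference with NaHS was 0.53 (CI 0.18 to 0.87, adjusted p = 0.170).

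Glrx encodes glutaredoxin, which removes glutathione from protein thiols. Its log2 signal was 11.06, 11.48 and 10.36 in control, 11.87, 12.14 and 12.21 in the CS + LPS group, 11.96, 11.67 and 11.70 with NaHS, and 12.10, 12.35 and 12.32 with PPG. Again no exposed array was as low as any control. Glrx was higher than control by 1.10 in the CS + LPS group (CI 0.57 to 1.63, 2.15-fold, adjusted p = 0.0466) and by 1.29 with PPG (CI 0.75 to 1.82, 2.44-fold, adjusted p = 0.0264), and differed by 0.81 with NaHS (adjusted p = 0.172).

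Prdx5 and Prdx1 encode peroxiredoxins, thiol enzymes that reduce hydrogen peroxide and are recycled by thioredoxin. For Prdx5 the log2 signal was 14.42, 14.45 and 13.65 in control, 15.07, 15.45 and 15.38 in the CS + LPS group, 15.03, 14.92 and 14.91 with NaHS, and 15.23, 15.30 and 15.29 with PPG. The exposed rats stood apart from the controls in each group. Prdx5 was higher than control by 1.12 in the CS + LPS group (CI 0.68 to 1.57, 2.18-fold, adjusted p = 0.0289) and by 1.10 with PPG (CI 0.65 to 1.54, 2.14-fold, adjusted p = 0.0248), and differed by 0.78 with NaHS (adjusted p = 0.141). Prdx1 was higher than control by 0.84 with PPG (CI 0.40 to 1.29, adjusted p = 0.0449), and differed by 0.75 in the CS + LPS group (adjusted p = 0.0769).

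Txn1, thioredoxin itself, was higher than control by 0.80 with PPG (CI 0.43 to 1.18, 1.74-fold, adjusted p = 0.0361), while its reductase Txnrd1 had the value of -0.37 given above. Atox1, the copper chaperone that supplies the secretory pathway in which Sod3 receives its copper, was higher than control by 0.91 in the CS + LPS group (CI 0.47 to 1.35, adjusted p = 0.0466). Rbx1, a subunit of the ubiquitin ligase that acts with KEAP1, was higher by 0.73 with PPG (adjusted p = 0.0436). Of the lower genes, Mafg, a small MAF partner of NRF2, fell by 0.91 in the CS + LPS group (CI -1.29 to -0.53, adjusted p = 0.0327), and Abcc4, an export pump, fell by 0.89 with PPG (CI -1.23 to -0.56, adjusted p = 0.0213).

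Whether these called genes differed between the exposed groups was read from the same fit, and none of the 9 was called there. With slide as a block, 4 of the 9 (Atox1, Glrx, Gpx1 and Prdx5) were called lower with NaHS than in the CS + LPS group, and 3 (Atox1, Gpx1 and Prdx5) were called lower with PPG. Of all 57 pathway genes, that fit called 1 higher and 14 lower with NaHS and 2 higher and 13 lower with PPG, against 23.0% and 22.6% of all probes, and it links the slides through control replicate 3 alone. Without the block, the differences with NaHS against the CS + LPS group ran from -0.46 (Prdx1, CI -0.91 to -0.01, adjusted p = 0.495) to 0.43 (Mafg, CI 0.05 to 0.82, adjusted p = 0.415). That a gene was called against control in another exposed group and not with NaHS does not show that NaHS differed from that group.

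**Figure D4:**
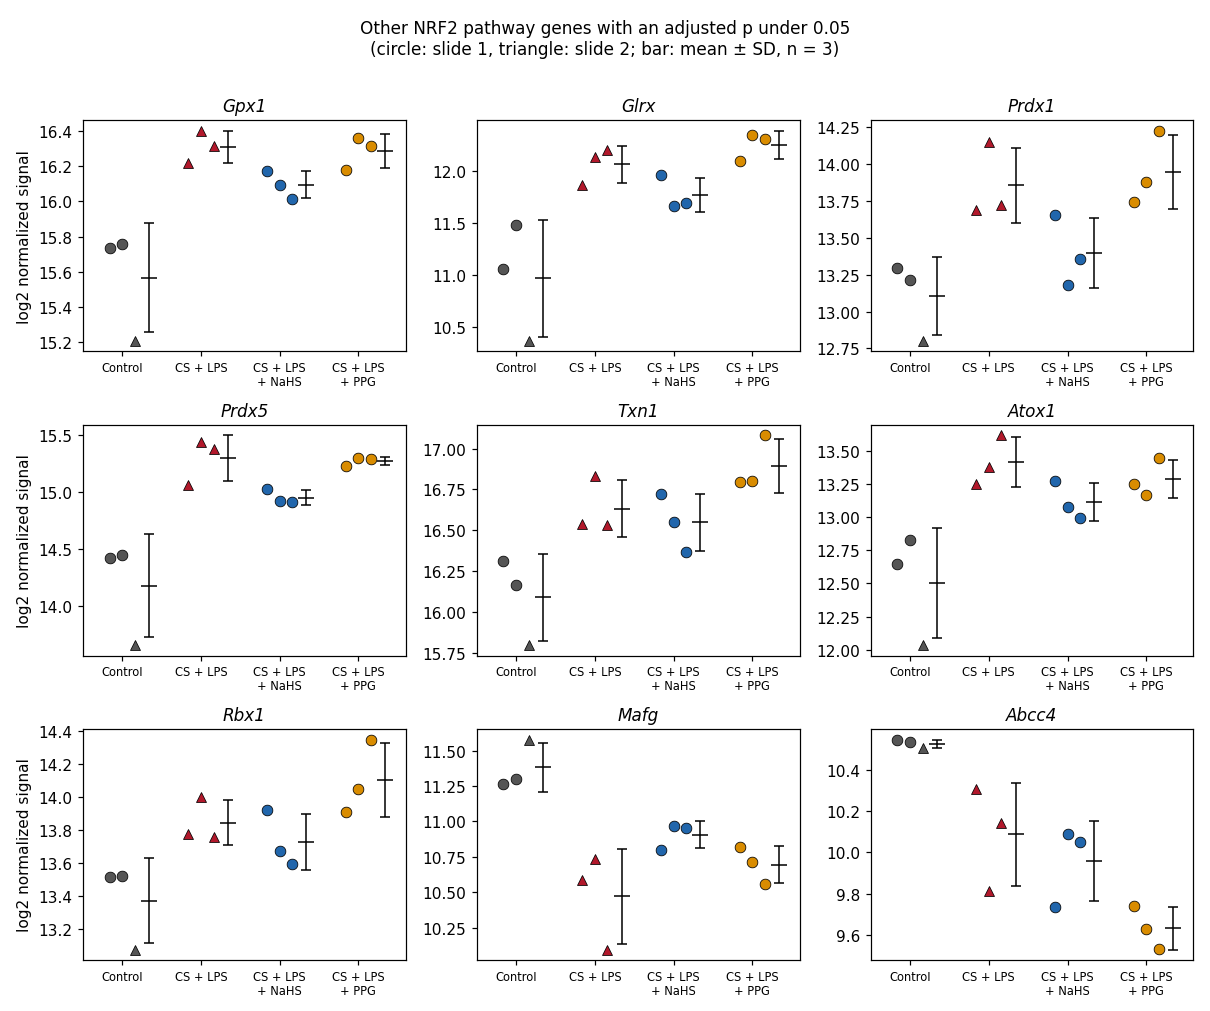
Normalized log2 signal (vertical axis, a scale of its own in each panel) of the 9 other NRF2 pathway genes that were called in at least 1 comparison, on each of the 12 arrays. Circles are arrays of slide 1, triangles arrays of slide 2, and the bar is the mean ± SD of 3 rats. For Gpx1, Glrx, Prdx5, Atox1, Txn1 and Rbx1 all 9 exposed arrays lie above the 3 controls, among which replicate 3 is the lowest. For Mafg and Abcc4 all 9 lie below the controls, and Prdx1 overlaps with NaHS. The genes are shown because they were called, so the separation is no further support, and the share of all probes that separate so is not given.

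Markers of inflammatory cells were higher in the same groups. The macrophage sum given above did not overlap between control and any exposed group, but it follows mostly Cd68, the brightest of its 5 detected genes. Of the 5, 4 had higher values (2 called) and 1, Fabp4, a lower value in the CS + LPS group. With NaHS 4 were higher (0 called) and Fabp4 was lower, and with PPG 5 were higher (1 called). The summed signal of 6 detected neutrophil markers was 7649 to 20790 in control, 27720 to 48080 in the CS + LPS group, 17070 to 39120 with NaHS and 25000 to 37230 with PPG, with 1 marker called higher in the CS + LPS group and 1 with PPG. Other marker lists also differed from control. All 6 heart muscle markers had higher values with PPG (median 3.28, 1 called), in the CS + LPS group (median 1.23, 0 called) and with NaHS (median 1.08, 0 called). With PPG, 3 of 3 detected fat markers had higher values (median 1.56, 0 called), against 1 of 3 in each other exposed group. Airway epithelium markers were 2 higher (1 called) and 2 lower with PPG. Alveolar type 2 markers were 3 higher (1 called) and 2 lower, both with PPG and in the CS + LPS group. Of 4 detected endothelium markers, 1 was called lower in the CS + LPS group and 1 with PPG. The summed heart muscle signal was 42250 to 72790 with PPG and 12940 to 53940 in the CS + LPS group, against the wide range of 6411 to 92140 in control. The part of any of these cells and tissues in the values above was not tested. Marco and Elane, among the defining markers, were not detected. Without control replicate 3, 2 of the 5 calls for CS + LPS (Gpx1 and Prdx5) and 4 of the 7 calls for PPG (Gpx1, Glrx, Prdx5 and Abcc4) remained. Within slide 1, 5 of the 7 PPG calls remained. Leaving out control replicate 2 kept all 12 calls, whereas leaving out any other single array left 0 to 2 of the 5 calls for CS + LPS and 0 to 6 of the 7 for PPG. With no detection filter, with only the compared groups in the fit or with the methods' t-test, 0 of the 12 remained. Those settings called at most 0.382% of all probes for CS + LPS and 0.366% for PPG against control.

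The RNA of Nfe2l2, Nqo1 and Keap1 gave no call. Nfe2l2 ranged from 12.91 to 13.32 over all 12 arrays and differed between the CS + LPS group and control by -0.05 (adjusted p = 0.807). Nqo1, the quinone reductase often used as a readout of NRF2, ranged from 9.90 to 10.62 and differed by 0.00 (adjusted p = 0.999). Keap1 read 10.36, 10.14 and 9.94 in control and 9.61, 9.86 and 9.66 in the CS + LPS group, a difference of -0.44 (adjusted p = 0.0988) without overlap between the groups. With NaHS, Keap1 read 10.07, 10.09 and 10.16, which was -0.04 from control. With PPG it read 9.97, 10.07 and 9.91, so the arrays of both groups lay above all CS + LPS arrays. Neither group was called against CS + LPS in Keap1, and both lay on slide 1 while the CS + LPS arrays lay on slide 2.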

How the data were processed

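The authors extracted RNA, hybridized Cy3-labelled cRNA and scanned the arrays. They deposited, per the file headers, the output of Feature Extraction 10.7.3.1 for each array, whose processed signal is a linear intensity from which the software had taken the background. On 3 arrays it was saved with 3 significant digits. The 5 deposited lists of the authors' comparisons hold fold changes, p-values and 120 columns of single-array values and were not used. Here, outlier spots were left out, spots of a probe were averaged, log2 signal was scaled to the 75th percentile of each array, and probes were tested with limma 3.58.1 in R 4.3.3, after a check on simulated data. All tests were two-sided. For single genes, an exact permutation test of 3 against 3 cannot give a p below 0.1. Groups and replicate numbers came from the labels. Precision was limited by having 3 arrays for a group. Symbols came from RefSeq accessions in a gene table of assembly GRCr8, which matched 17514 of 30367 probes, and promoters from RefSeq on the same assembly. Genes named are the 10 members, the called genes of the pathway lists, Nfe2l2, Keap1 and Nqo1, the lists' markers, and the gene most like each member, of which 1 is not reported here. The members, lists and tests were chosen with earlier results of these data known. Alternatives were quantile normalization, another set of probes behind the 75th percentile, normexp with an offset of 50 (on median signal, since the files hold no mean signal), outlier spots kept, other detection filters, slide or replicate number as a block, single slides, fits of the compared groups alone, the study's rule, the methods' t-test, the mean over probes, and leaving out each array. For the called pathway genes these were added after seeing the data.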

Additional observations from a re-analysis of the deposited data

How the results depend on the processing

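With all 12 arrays, limma called 0 of 9 detected members in each of the 6 comparisons. Of 1278 refits of the 54 member differences, 1272 kept the same side of the threshold, 5 passed it and 1 passed it in the opposite direction, and the sign changed in 76 refits of 32 differences. With slide as a block, 2 members were called for CS + LPS against control (Hmox1 0.82, Cat 1.17) and 1 for PPG against CS + LPS, Cat at -1.08 in place of 0.30, while that fit called 41.6% and 22.6% of all probes. Within slide 2, 1 member was called for CS + LPS against control (Cat), with 18.4% of all probes. For NaHS against CS + LPS, 1 member (Cat) was called when only these groups were fitted, with 0.989% of all probes. Leaving out single arrays gave 0 to 1, the 1 being Cat without control replicate 3, with 1.85% of all probes. By the study's rule, 1 member was called for NaHS against control (Cat), against 2.67% of all probes. The cause of these changes was not tested. The replicate block gave 0 called members in each comparison, as did the fit without it. Same-numbered arrays did not deviate together (r from -0.31 to 0.14 in 18 pairs, 2 over 0.1). The values thus gave no sign that the numbers pair the samples, though they cannot exclude it. The 12 calls of other pathway genes kept their direction in all 24 settings each and stayed called in 7 to 17 of them. With no detection filter, with the replicate block, with only the groups compared and with the methods' t-test, 0 of the 12 stayed called. Those settings called at most 0.382% of all probes for CS + LPS and 0.366% for PPG against control. With slide as a block, the 57 pathway genes gave 24 higher and 4 lower calls for CS + LPS against control (41.6% of all probes), 1 and 14 for NaHS against CS + LPS (23.0%), and 2 and 13 for PPG against CS + LPS (22.6%). The dimmest member, Gclm, lay at background, so its change could not be measured.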
